A study of Homo sapiens with 4 samples.

Results

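The TALE homeobox genes of the MEIS, PBX and TGIF families were examined for GATA3 binding in H1 human embryonic stem cells (hESC). The members were 7 genes, MEIS1, MEIS2, MEIS3, PBX2, PBX3, PBX4 and TGIF1, of 20033 protein-coding genes on 24 chromosomes. A position listed by the authors for a GATA3 peak was assigned to a member when it was no more than 100 kb from that gene's 5′ end, or inside its body, or when the authors had given it the gene's name. The name alone brought in 0 positions. A region was called shared where a position of replicate 1 and a position of replicate 2 lay within 100 bp of each other. By this rule the members had 22 of 18456 positions in replicate 1, 15 of 12782 in replicate 2 and 10 of 9145 shared regions. Positions were counted once, and 12 were listed in replicate 1 only and 5 in replicate 2 only, which made 27 locations in all.

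H1 is an established line of pluripotent cells, grown here in mTeSR1 medium, and every sample had received BMP4 at 50 ng/ml for 6 h. The series held 2 GATA3 ChIP replicates and 2 input samples of sheared chromatin, and the positions of the 2 ChIP replicates were analysed. No untreated GATA3 ChIP sample was analysed here, so none of the values below is a change with BMP4. The labels number the ChIP samples as repeats, and the study's methods call them biological replicates.

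TALE proteins are transcription factors whose homeodomain carries a short loop extension, which is the source of the name. MEIS and PBX proteins bind DNA as partners of each other and of HOX proteins, and they are best known for positional identity of the embryo, limb, heart, eye and blood. TGIF1 is a repressor that restrains SMAD-driven transcription downstream of TGF-β ligands and is also linked to retinoic acid signalling. GATA3 is a zinc-finger factor that recognises the letters GATA in DNA and is induced by BMP in pluripotent cells, with roles in trophoblast, amnion and T cells.

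All 7 members had at least 1 shared region, and the background under the same rule was 47.7% of protein-coding genes (9558 of 20033). MEIS2 had 4 shared regions and each of the other 6 members had 1. A count of 4 or more was found in 2.1% of protein-coding genes, and the median gene had 0. The members were picked with earlier results of these files known, so their number beside 47.7% is a description. Long genes offer more room under the rule. Genes whose search window ran from 210 to 250 kb had a shared region in 51.4% of cases and those over 250 kb in 70.3%, against 44.5% up to 210 kb. The windows of the members added up to 1.67 Mb and held 5.98 shared regions per Mb, against 3.11 per Mb of the sequenced genome. This density is also a description and not an enrichment. The members were picked with their shared regions known, and the genome figure takes in stretches far from any gene.

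**Figure D1:**
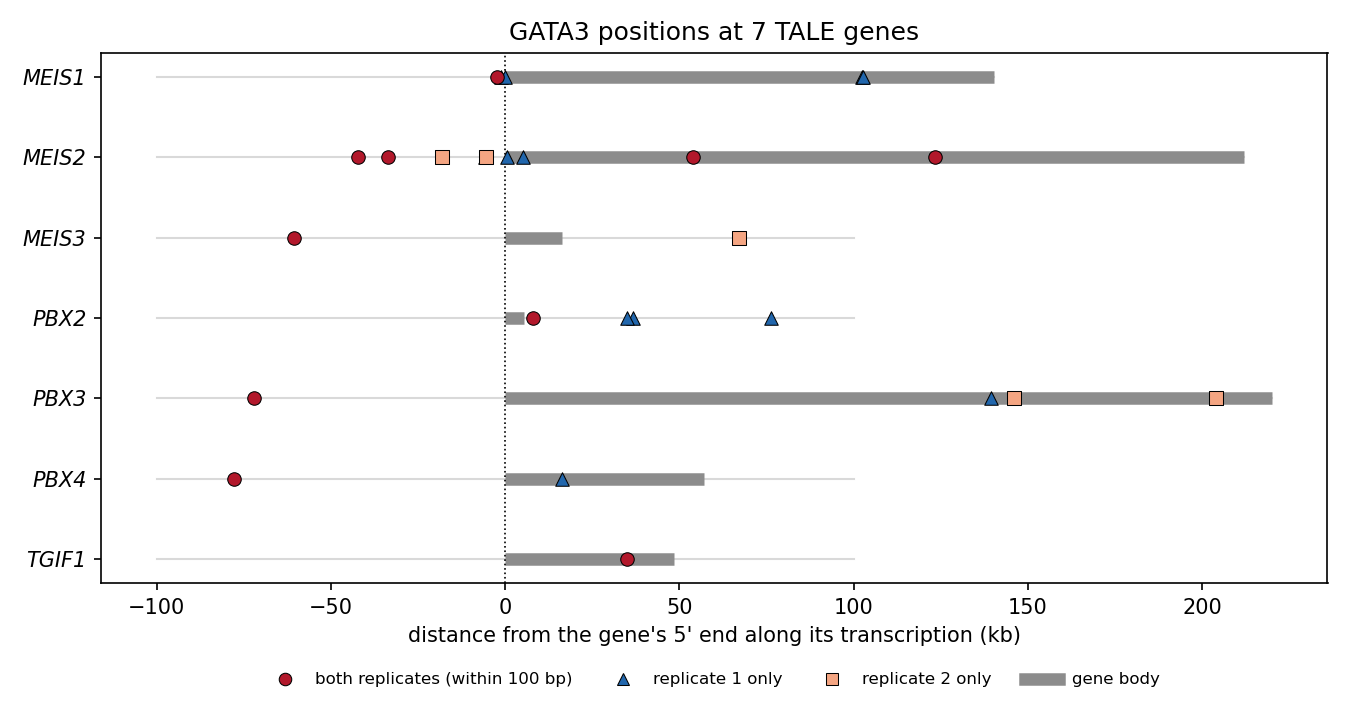
GATA3 positions along the 7 member genes, with distance from the 5′ end of each gene in kb on the horizontal axis (negative is upstream) and a row for each gene. Grey bars are gene bodies, circles are shared regions, triangles are positions of replicate 1 only and squares are positions of replicate 2 only; MEIS2 shows 4 circles and every other gene shows 1.

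The DNA at the shared regions is shown first, since the sequence is where a reader can look for GATA3's recognition letters. For each gene the shared region nearest to its 5′ end is given, and for MEIS2 also the region whose replicate positions coincided most closely. Each line is 200 bases of hg38 around the centre of the region, read 5′ to 3′ on the + strand. Capitals mark GATA words, defined as AGATAA or AGATAG or TGATAA or TGATAG. Read from the other strand these are TTATCT for the first and CTATCT for the second, then TTATCA for the third and CTATCA for the fourth.
MEIS1, upstream of the gene, chr2:66431006-66431205: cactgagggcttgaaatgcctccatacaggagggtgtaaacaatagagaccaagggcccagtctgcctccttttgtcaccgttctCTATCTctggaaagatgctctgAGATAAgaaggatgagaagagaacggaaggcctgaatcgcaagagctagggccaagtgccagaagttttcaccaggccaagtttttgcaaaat
MEIS2, upstream of the gene, chr15:37134755-37134954: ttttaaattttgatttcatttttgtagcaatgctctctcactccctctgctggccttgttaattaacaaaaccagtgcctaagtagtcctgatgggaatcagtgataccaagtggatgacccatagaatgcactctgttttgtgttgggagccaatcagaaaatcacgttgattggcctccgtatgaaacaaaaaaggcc
MEIS2, intron 7, chr15:37047320-37047519: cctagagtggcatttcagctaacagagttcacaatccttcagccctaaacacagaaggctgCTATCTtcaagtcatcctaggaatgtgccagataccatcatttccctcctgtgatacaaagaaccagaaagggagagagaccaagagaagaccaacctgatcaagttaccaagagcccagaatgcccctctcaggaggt
MEIS3, in KPTN, chr19:47480073-47480272: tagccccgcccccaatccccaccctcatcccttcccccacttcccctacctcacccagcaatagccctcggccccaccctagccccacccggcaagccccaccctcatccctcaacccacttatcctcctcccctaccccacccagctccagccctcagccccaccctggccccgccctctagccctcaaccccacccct
PBX2, in AGER, chr6:32182236-32182435: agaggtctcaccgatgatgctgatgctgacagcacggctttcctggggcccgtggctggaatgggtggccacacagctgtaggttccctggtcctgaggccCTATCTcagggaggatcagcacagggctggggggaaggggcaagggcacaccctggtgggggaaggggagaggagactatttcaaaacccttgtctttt
PBX3, in MAPKAP1, chr9:125675280-125675479: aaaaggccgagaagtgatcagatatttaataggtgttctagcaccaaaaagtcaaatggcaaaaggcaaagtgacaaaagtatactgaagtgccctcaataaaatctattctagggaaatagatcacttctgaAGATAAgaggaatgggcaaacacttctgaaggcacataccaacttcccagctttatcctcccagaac
PBX4, intergenic, chr19:19696538-19696737: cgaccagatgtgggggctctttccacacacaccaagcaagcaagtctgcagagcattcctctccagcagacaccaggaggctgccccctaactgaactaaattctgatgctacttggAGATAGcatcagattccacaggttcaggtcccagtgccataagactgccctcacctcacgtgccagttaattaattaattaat
TGIF1, in the gene, chr18:3446582-3446781: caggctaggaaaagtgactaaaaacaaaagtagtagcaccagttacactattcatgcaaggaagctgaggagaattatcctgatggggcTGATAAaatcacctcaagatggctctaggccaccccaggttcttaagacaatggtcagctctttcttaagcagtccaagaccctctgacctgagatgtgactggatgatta
Of these 8 windows, that of MEIS1 held 2 GATA words, the upstream window of MEIS2 and that of MEIS3 held 0, and the other 5 held 1 each.

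MEIS1, a cofactor of HOX proteins in blood stem cells and in the heart, spans chr2:66433452-66573869 on the + strand (ENSG00000143995.20). It had 5 positions in replicate 1 and 1 in replicate 2. The shared region lay 2.35 kb upstream of the 5′ end, with the positions 66431094 in replicate 1 and 66431116 in replicate 2, 22 bp apart. It was 4.02 kb upstream of the start of the canonical transcript. On the opposite strand this interval is intron 3 of the long noncoding RNA MEIS1-AS3. The GATA words CTATCT and AGATAA flanked the centre of the region, at 11.5 bp on the left and 10.5 bp on the right. This was the only shared region of the members that carried a member's own name in the authors' column.

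Replicate 1 listed 2 further positions between that region and the gene, 1.34 kb and 0.111 kb upstream of the 5′ end, and neither window held a GATA word. The nearer of them was at 66433341, in exon 1 of MEIS1-AS3, with a GC content of 62%. No position of replicate 2 lay within 100 bp of either, and for the position at 1.34 kb the nearest was 998 bp away. The other 2 positions of replicate 1 were both in intron 8, at 66535744 and 66536105, 102 kb and 103 kb into the gene. Each of those windows had 2 GATA words, and at the first an AGATAA stood 1.5 bp from the listed position, the closest of any member location. So the MEIS1 positions lay in 2 groups, upstream of the gene and in intron 8, and only the upstream group held a shared region.

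**Figure D2:**
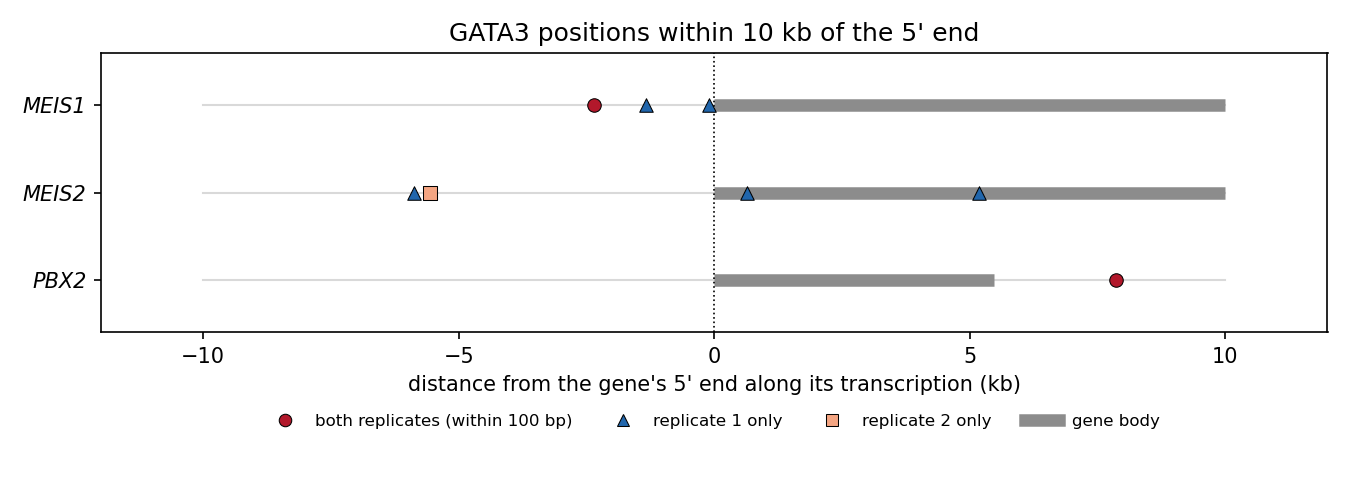
GATA3 positions within 10 kb of the 5′ end of MEIS1, MEIS2 and PBX2, the members with any, with distance from the 5′ end in kb on the horizontal axis and a row for each gene. Circles are shared regions (MEIS1 and PBX2), triangles are replicate 1 only, the square is replicate 2 only and grey bars are gene bodies; MEIS2 has 4 points and no circle.

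MEIS2, a close relative of MEIS1 with roles in neural crest, palate and heart, spans chr15:36889204-37101299 on the − strand (ENSG00000134138.22). It had 7 positions in replicate 1 and 6 in replicate 2, the most of any member in both. Its 4 shared regions were spread over 166 kb, with 2 upstream of the gene and 2 in introns. Among the 1363 genes whose window was of like length to its 312 kb (the shorter at least 80% of the longer), the median was 1 shared region and 4.18% had 4 or more. No 5′ end of another protein-coding gene lay within 100 kb, and MEIS2 was the nearest such gene to all 4 regions.

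The upstream regions were 33.6 kb and 42.3 kb from the 5′ end. The nearer had positions 37134832 and 37134877 in replicates 1 and 2, 45 bp apart, and no GATA word. The farther had positions 37143568 and 37143595, 27 bp apart, and a TTATCA 28 bp from the centre. The region in intron 7 was 53.88 kb into the gene, with positions 37047424 and 37047414 only 10 bp apart, the smallest gap among the members. Its word, CTATCT, was 35.5 bp from the centre. The region in intron 8 was 124 kb into the gene and 3.02 kb upstream of the nearest annotated start of a MEIS2 transcript, with positions 36977786 and 36977798.

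The intron 8 window held 3 GATA words, the most of any shared region of the members, and for that reason it is printed as well, chosen after its values were seen.
MEIS2, intron 8, chr15:36977693-36977892: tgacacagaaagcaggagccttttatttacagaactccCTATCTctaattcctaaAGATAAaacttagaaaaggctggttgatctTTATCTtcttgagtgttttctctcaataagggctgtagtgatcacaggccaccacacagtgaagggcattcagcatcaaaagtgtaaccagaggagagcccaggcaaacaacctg
The words lie on the same side of the centre, with CTATCT at 58.5 bp, AGATAA at 41.5 bp and TTATCT at 11.5 bp from it. In the authors' column the 4 regions carried the names of noncoding RNAs, MIR8063 in intron 8, Y_RNA in intron 7 and RP11-128A17.2 at both upstream regions, so a search by the name MEIS2 would find none of them.

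Near the 5′ end of MEIS2 the replicates differed. Replicate 1 listed 37100661, 0.638 kb into the gene and 0.112 kb upstream of the canonical start, where the GC content was 72% and no GATA word was found. It also listed a position 5.18 kb into the gene, in intron 3, with TTATCT 6.5 bp away. Upstream, replicate 1 listed 37107184 (5.89 kb) and replicate 2 listed 37106869 (5.57 kb), 315 bp apart and therefore not a shared region at 100 bp. Replicate 2 alone listed a position 18.0 kb upstream, with a CTATCT 82.5 bp from it. None of the 4 positions within 10 kb of this 5′ end was matched.

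MEIS3, the least studied of the MEIS genes, spans chr19:47403124-47419527 on the − strand (ENSG00000105419.18). It had 1 position in replicate 1 and 2 in replicate 2. The shared region, 47480165 and 47480180, was 60.6 kb upstream in intron 7 of KPTN, whose product acts in control of the mTORC1 kinase. The 5′ end of KPTN was 4.09 kb away and was the nearest. KPTN was also the name in the deposited column. Its window is rich in C, as the printed sequence shows, with a GC content of 69%, the highest among the shared regions of the members, and had no GATA word. The unmatched position of replicate 2 lay 67.3 kb downstream of the 5′ end in intron 1 of the helicase gene DHX34, with TTATCA at 41.5 bp.

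PBX2 is a broadly expressed PBX gene in the major histocompatibility complex, at chr6:32184733-32190202 on the − strand (ENSG00000204304.12). It had 4 positions in replicate 1 and 1 in replicate 2, and 13 other protein-coding genes have their 5′ end within 100 kb. The shared region, 32182360 and 32182311, lay 7.87 kb downstream of the PBX2 5′ end, past the end of the gene. It fell in exon 8 of AGER, which encodes a receptor for advanced glycation end products, 1.99 kb from that gene's 5′ end, and the authors named it AGER. The positions were 49 bp apart, the widest gap among the members, and a CTATCT stood 4 bp from the centre, the closest word of any shared region here. The other positions, all of replicate 1 only, were 35.0 kb and 36.7 kb from the 5′ end in PPT2 and 76.2 kb from it in TNXB. Of these 3, only the first had GATA words, 2 of them.

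PBX3, which acts with HOX proteins in hindbrain and in leukaemia, spans chr9:125747345-125967377 on the + strand (ENSG00000167081.18). It had 2 positions in replicate 1 and 3 in replicate 2. The shared region, 125675364 and 125675394, was 72.0 kb upstream in intron 1 of MAPKAP1, a component of the mTORC2 kinase complex, 31.9 kb from the 5′ end of that gene. An AGATAA lay 36.5 bp from the centre, the farthest of the nearest words among the shared regions. Among the 1278 genes with a window of like length (here 320 kb), 63.6% had at least 1 shared region.

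Inside PBX3 each replicate had positions but they did not coincide. In intron 2, replicate 1 listed 125886692, 139 kb into the gene, and replicate 2 listed 125893463, 146 kb into it, 6771 bp apart. The first window held 3 GATA words and the second held 0, and the authors had named both PBX3. Replicate 2 also listed a position in intron 5, 204 kb into the gene, with no word. All positions in the body of PBX3 were thus found in a single replicate.

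PBX4, a PBX gene known chiefly from testis, spans chr19:19561707-19618693 on the − strand (ENSG00000105717.14). It had 2 positions in replicate 1 and 1 in replicate 2. The shared region, 19696631 and 19696643, was intergenic and 77.9 kb upstream, the farthest from its member's 5′ end among the 6 members with 1 region. The nearest protein-coding 5′ end was that of the zinc-finger gene ZNF101 at 27.8 kb, and an AGATAG lay 20.5 bp from the centre. The name in the deposited column was CTC-412M14.6. The position of replicate 1 only was in intron 1, 16.2 kb into the gene, with TTATCA 81.5 bp away.

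TGIF1, the TGIF member and the SMAD corepressor of the group, spans chr18:3411608-3459978 on the + strand (ENSG00000177426.22). It had a single position in each replicate, 3446688 and 3446675, 13 bp apart, and was the only member with no unmatched position. The region was 35.1 kb from the outermost 5′ end but 3.49 kb upstream of the canonical start, and 0.928 kb upstream of the nearest annotated start of a TGIF1 transcript. In the RefSeq promoter table for GRCh38.p14 the nearest TGIF1 start was 0.861 kb away. A TGATAA lay 8 bp from the centre. No other protein-coding 5′ end was within 100 kb, and the authors' name for the region was the long noncoding RNA GAPLINC.

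Across the members, 3 of the 10 shared regions were in a member's own gene body, 2 in MEIS2 and 1 in TGIF1. The nearest protein-coding 5′ end was the member's own for 6 regions, those of MEIS1, MEIS2 and TGIF1, and that of KPTN, AGER, MAPKAP1 or ZNF101 for the regions assigned to MEIS3, PBX2, PBX3 and PBX4. A shared region within 10 kb of the 5′ end was present at 2 members, MEIS1 and PBX2, and at 8.69% of protein-coding genes (1741 of 20033). That of PBX2 lay past the end of the gene, in AGER. The TGIF1 region is not in this count, being 35.1 kb from the outermost 5′ end, though it was 3.49 kb from the canonical start. Of the 8 locations within 10 kb of a member's 5′ end, 5 were in replicate 1 only, 1 in replicate 2 only and 2 were shared. A peak's position near a gene does not show which gene, if any, it acts on, and transcript levels were not analysed here.

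The share of positions found in both replicates is given as a description, with no test, since the members were picked with their shared regions known. Of the member positions in replicate 1, 45.5% (10 of 22, 95% CI 26.9 to 65.3) had a partner in replicate 2, against 49.6% of the other 18434 positions. In replicate 2 the share was 66.7% (10 of 15, 95% CI 41.7 to 84.8), against 71.6% of the other 12767. Both genome-wide shares lay inside the members' intervals, but no likeness is read from this, since the members were picked with their shared regions known. Replicate 1 listed 1.47 times as many member positions as replicate 2, and 1.44 times as many positions over the whole deposited lists. These lists differ in length from the peak numbers in the study's methods, longer in replicate 1 and shorter in replicate 2, and the step between them was not given in the sources used here. The paired positions were a median of 18.5 bp apart (10 to 49 bp, n = 10), and those of all shared regions a median of 23 bp. The Wilson intervals cover only counting error, and positions at the same gene are not independent.

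GATA words were then counted in the 200 bp around each location, a feature that the assignment to genes had not used. At least 1 word was present at 80% of the shared regions of the members (8 of 10, 95% CI 49.0 to 94.3), and at 82.0% of the other 9135 shared regions (Fisher's exact test, two-sided p 0.698, adjusted p 0.832). The exceptions were the regions of MEIS3 and the nearer upstream region of MEIS2. Where a word was present, the nearest was a median of 16 bp from the centre (4 to 36.5 bp), against 18 bp in the other shared regions. AGATAA was in 30% of the member regions (95% CI 10.8 to 60.3) and in 51.6% of the others. It occurred at MEIS1, in intron 8 of MEIS2 and at PBX3.

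Among the 17 member positions found in a single replicate, 52.9% had a word (9 of 17, 95% CI 31.0 to 73.8). The difference from the 80% of the shared regions did not pass the test (Fisher's exact test, two-sided p 0.230, adjusted p 0.832). In a narrower window of 100 bp, an alternative added after seeing the data, the share was 29.4% (5 of 17, 95% CI 13.3 to 53.1) against 80%, with an unadjusted Fisher's exact p of 0.0183. Elsewhere in the genome, positions found in a single replicate had a word in 71.3% of 200 bp windows and 52.2% of 100 bp windows. The other shared regions had a word in 82.0% of 200 bp windows and 71.2% of 100 bp windows. Positions at the same gene are not independent, so the p-values cover only counting error. The single-replicate positions of the members also had a higher median GC content, 51% (33 to 72) against 46% (37.5 to 69) in the shared regions, and the part of base composition in the count of words was not tested.

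**Figure D3:**
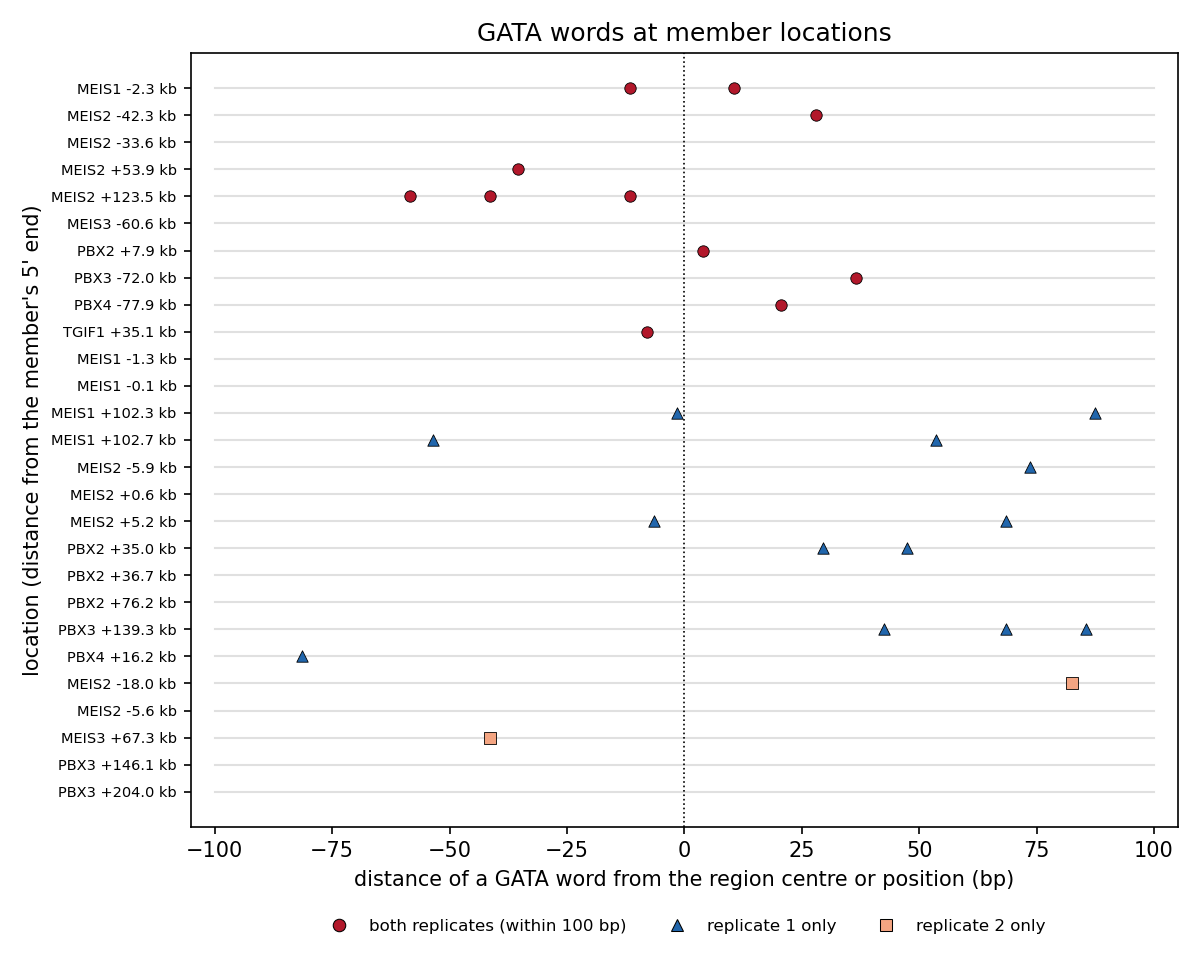
Distance in bp of each GATA word from the centre of its 200 bp window on the horizontal axis, with a row for each location of the members, shared regions and single-replicate positions in different colours. Words of the shared regions lie mostly near the centre (the nearest at 4 to 36.5 bp), while the nearest words of single-replicate positions range from 1.5 to 82.5 bp.

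The 8 single-replicate positions without a word included those beside the 5′ ends of MEIS1 and MEIS2. Their GC contents of 62% and 72% were the highest of the 8, and the rest ranged from 42% to 58.5%. The window near the MEIS1 5′ end is printed as well, chosen after its values were seen. Replicate 1 had a position there, 1.78 kb upstream of the canonical start, and no GATA word stood within 100 bp.
MEIS1, replicate 1 only, chr2:66433242-66433441: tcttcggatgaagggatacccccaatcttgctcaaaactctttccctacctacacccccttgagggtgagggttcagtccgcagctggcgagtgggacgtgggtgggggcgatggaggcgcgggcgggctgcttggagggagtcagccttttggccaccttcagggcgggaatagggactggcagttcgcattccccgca

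Words for the TALE proteins themselves were sought in the same windows on both strands. The MEIS word TGACAG was in 1 of the 10 shared regions, at PBX2, or 10%, against 10.7% of the other shared regions. The shorter core TGTCA, which MEIS and TGIF proteins share and whose other strand is contained in TGACAG, was in 4, at MEIS1, in intron 8 of MEIS2, at PBX2 and at PBX3, or 40% against 37.0%. The PBX and HOX word TGATTNAT was in 0 of 10, which leaves an upper limit of 27.8% (95% Wilson interval), and in 3.19% of the others. The octamer ATGCAAAT, read by POU factors such as OCT4, was in 0 of 10 and in 5.10% of the others. Of the 17 single-replicate positions, TGATTNAT was in 1, the MEIS2 position 5.89 kb upstream, and TGACAG in 1, in intron 2 of PBX3. A match is only a run of letters and does not show binding of a TALE protein.

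**Figure D4:**
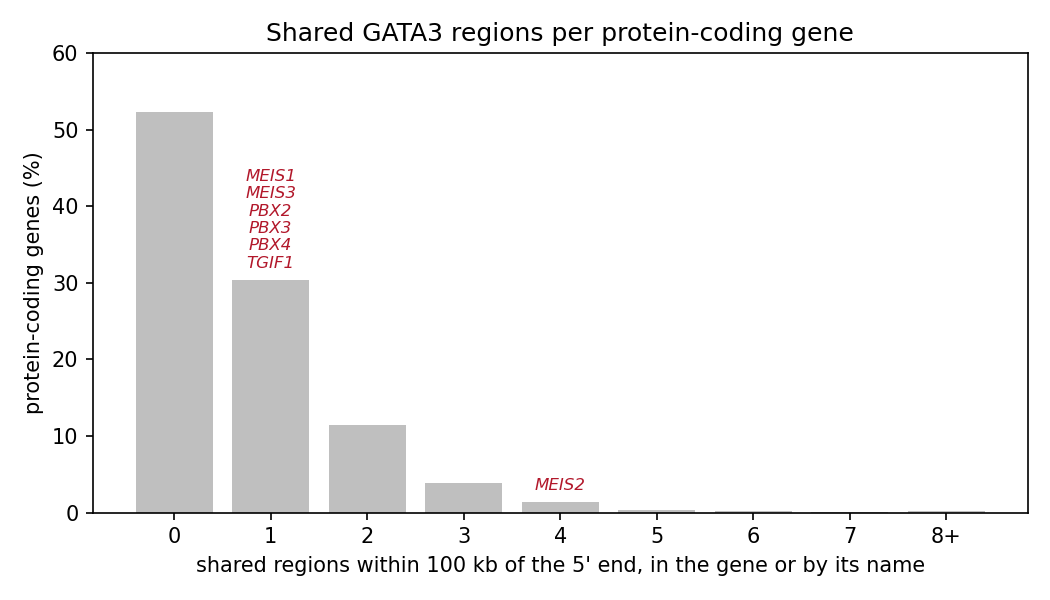
Percent of 20033 protein-coding genes (vertical axis) by number of shared GATA3 regions under the same rule (horizontal axis, the last bar holding 8 or more), with the members marked at their counts. Most genes have 0 (52.3%) or 1 (30.4%), 6 members stand at 1 and MEIS2 stands at 4, a count shared by 1.32% of genes.

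The other TALE genes examined, PKNOX1, PKNOX2, IRX1 to IRX6 and MKX, served only for comparison. A shared region was found at 3 of these 9 genes under the same rule, with 4 at PKNOX1, 2 at MKX and 1 at IRX4, and their median was 0. MEIS2 and PKNOX1 therefore had the same count. The difference between 7 of 7 and 3 of 9 was not tested, since the members had been picked with results in view.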

How the data were processed

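GATA3 ChIP-seq peaks of 2 replicates were analysed; the input samples entered only through peak calling. Following the study's methods, adapters were trimmed with cutadapt and reads were aligned to hg38 with bowtie. Duplicates (Picard), multiply mapped reads and ENCODE blacklisted regions were removed, and MACS2 called peaks in each replicate against its own input. Tool versions were not given in the sources used here. The deposited files gave a base position and a gene name per peak, with no score, width or read count, so read depth was unknown, and positions were uncertain by at least 1 bp.

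The members, lists and tests were chosen with earlier results of these data known. After 7 and 5 repeated lines were removed, 82 and 83 positions on scaffolds were left out. GENCODE release 44 gave 5′ ends (the outermost base of each gene) and transcripts, and sequences came from hg38. All members matched the RefSeq promoter table. Every member is named, and for each shared region the gene in which it lies, the nearest protein-coding gene and the authors' name for it; for single-replicate positions not every such name is given. Windows were centred on the mean of the replicate positions. Tests were two-sided Fisher's exact tests with Benjamini-Hochberg adjustment over 4 tests, and intervals were Wilson intervals. Those of the 2 matched shares are not read as tests here, yet they entered the adjustment. The adjusted p of 0.832 printed for the GATA words is the unadjusted Fisher's exact p of the replicate 1 matched share. Python 3.11.15, numpy 2.4.6, scipy 1.17.1 and statsmodels 0.14.6 were used, and the steps were tested on simulated data. Repeat content was not computed, because the hg38 sequence used here does not mark repeats. Matching distance, gene window, gene start, word, window and replicate were varied.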

Additional observations from a re-analysis of the deposited data

How the results depend on the processing

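The count of shared regions followed the rule for the gene window. It was 10 as reported, 2 within 10 kb of a 5′ end, 1 by the authors' names alone and 16 with a window of 250 kb, which was chosen after seeing the data. The genes with a shared region numbered 7 as reported, 4 with 50 kb, 2 with 10 kb and 1 by name. With a single replicate's list no region can be shared, and the members then had 15 positions (without replicate 1) or 22 (without replicate 2). At 500 bp the count of shared regions was 11, as MEIS2 gained a region. The start of the canonical transcript in place of the 5′ end left that count at 10. At 50 bp the matched shares stayed at 45.5% and 66.7%, while their direction against the other positions reversed. The share of shared regions with a GATA word lay on the other side of the remaining regions at 50 kb (85.7%), at 10 kb (100%), by name (100%) and in 100 bp windows (80%, Fisher's exact p 0.734), the settings of 50 kb and of names having been added after seeing the data. For single-replicate positions, also added later, 100 bp windows gave 29.4% (unadjusted Fisher's exact p 0.0183) and AGATAA alone gave 35.3% with the direction reversed (p 1); the cause was not tested. No paired analysis was possible because the input samples had no positions to compare with the numbered ChIP replicates and no test compared groups that share numbers. With 10 shared regions and no scores or reads, differences of share smaller than the printed intervals could not be resolved.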

Other observations

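The surroundings of the genes were examined with a window of 250 kb, chosen after seeing the data. Within it TGIF1 had 3 shared regions, MEIS1, MEIS3, PBX3 and PBX4 had 2 each, PBX2 still had 1 and MEIS2 still had 4, while the median protein-coding gene had 1. Of all protein-coding genes, 11.0% had as many as MEIS2 and 23.5% as many as TGIF1. Beyond the 4 regions of MEIS2, the next shared regions lay 317 kb upstream of its 5′ end and 348 kb downstream of it. At TGIF1 the next ones were 270 kb upstream and 182 kb downstream. Among the 7 members the next shared regions on either side were farthest apart at PBX2, 1726 kb upstream and 583 kb downstream. Next to MEIS1 they were 311 kb upstream and 148 kb downstream.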
